A study of Mus musculus with 6 samples.

Results

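The genes described here are the amino acid transporters of 6 solute carrier families, *Slc1*, *Slc3*, *Slc7*, *Slc36*, *Slc38* and *Slc43*, in gastrocnemius (GAS) muscle. They were chosen by symbol alone, as genes whose name is one of these family names followed by a member number. Of the 24532 genes in the table, 42 matched, and the 27 with 60 or more counts summed over the 6 libraries were kept. All 27 also passed the filter on low counts and entered the test. *Slc38a11*, with 62 summed counts, lay just inside the minimum, and *Slc7a11*, with 46, lay just outside it.

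Amino acids do not cross membranes unaided, and muscle, which holds most of the free amino acid pool of the body, takes them up and releases them through carriers of these families. The *Slc38* carriers bring in small neutral amino acids such as alanine and glutamine together with sodium. The *Slc7* carriers exchange large neutral or cationic amino acids, and many of them must pair with the CD98 heavy chain encoded by *Slc3a2*. Members of the *Slc36* and *Slc38* families that sit on the lysosome pass the amino acid supply on to mTORC1, the kinase complex that drives protein synthesis.

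RNA came from GAS muscle of 3 WT mice, which carried floxed *Sirt6* alleles (*Sirt6* flox/flox) without Cre, and of 3 *Sirt6* KO mice, which carried the same alleles with *Myl1-Cre*. All were C57BL/6 males of 20 weeks, with 1 library per animal. SIRT6 is a deacetylase of histones and other proteins. *Myl1-Cre* is active mainly in fast postmitotic fibers, and *Sirt6* in the other cells of the muscle was not measured here. With no group carrying Cre alone, the Cre allele and the floxed deletion cannot be told apart. Different floxed *Sirt6* lines are named in the study's methods and in its reporting summary. Library totals lay between 44845763 and 63016899 counts, and 1 count was worth between 0.0165 and 0.0212 CPM (a count scaled to library size after TMM normalization). The 6 skeletal myofiber markers, *Ckm* and *Acta1* among them, summed to between 158300 and 211200 TPM (a level per transcript length, scaled to a fixed sum in each library).

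*Sirt6* itself stood at 2.77, 2.23 and 2.88 CPM in WT libraries 1, 2 and 3, whereas the KO-labelled libraries 1, 2 and 3 held 7.81, 7.44 and 6.68 CPM. The deleted gene was thus higher where it was labelled deleted, with a log2 fold change of 1.48 (SE 0.17, edgeR adjusted p = 0.0113). A count over the whole gene does not show which exons were read. By Western blot, the study reports ablation of SIRT6 protein in the skeletal muscle of *Sirt6* KO mice. It does not say whether these animals were among those tested. Every direction given here rests on the labels, and lower and higher always refer to the libraries labelled *Sirt6* KO relative to WT.

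The libraries also differed in fiber content in a way that partly cut across the groups. The summed level of 7 slow-fiber genes was 5808, 5319 and 498 TPM in WT 1, 2 and 3, and 753, 2985 and 951 TPM in *Sirt6* KO 1, 2 and 3. WT 3 therefore stood apart from the other 2 WT libraries, and *Sirt6* KO 2 stood above the other 2 KO libraries. The 7 genes were *Myh7*, *Myh2*, *Tnni1*, *Tnnc1*, *Tnnt1*, *Myl2* and *Atp2a2*. *Myh2* encodes MyHC-IIa, which the study counts among slow-fiber genes. It gave 1473, 1937 and 399 TPM of the sum in WT 1, 2 and 3, and 452, 882 and 512 TPM in *Sirt6* KO 1, 2 and 3. In WT 3, *Sirt6* KO 1 and *Sirt6* KO 3 the sum was thus mostly *Myh2*. Neither the sum nor a covariate made from these genes follows fibers with MyHC-I alone. All 7 genes had a negative log2 fold change (median -1.11), but none had an edgeR adjusted p under 0.05. The study reports a lower density of oxidative fibers in *Sirt6* KO GAS muscle. A fit with the slow-fiber level as a covariate may therefore also take out part of a difference between the groups. Erythroid genes, which mark blood, ran from 122 to 1020 TPM in WT and from 240 to 505.5 TPM in KO, with WT 3 again the lowest library. In bulk muscle, fewer cells of a type and less RNA per cell cannot be told apart.

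Most of the transporter message came from a few genes. Of the 27 transporters, 9 had a mean level above 10 TPM, 20 were above 1 TPM, and 7 were at or under 1 TPM. *Slc38a2*, *Slc38a4* and *Slc38a3* led, and together they made up between 56.7% and 69.6% of the summed transporter level in each library. The plot of levels by library shows this spread.

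**Figure D1:**
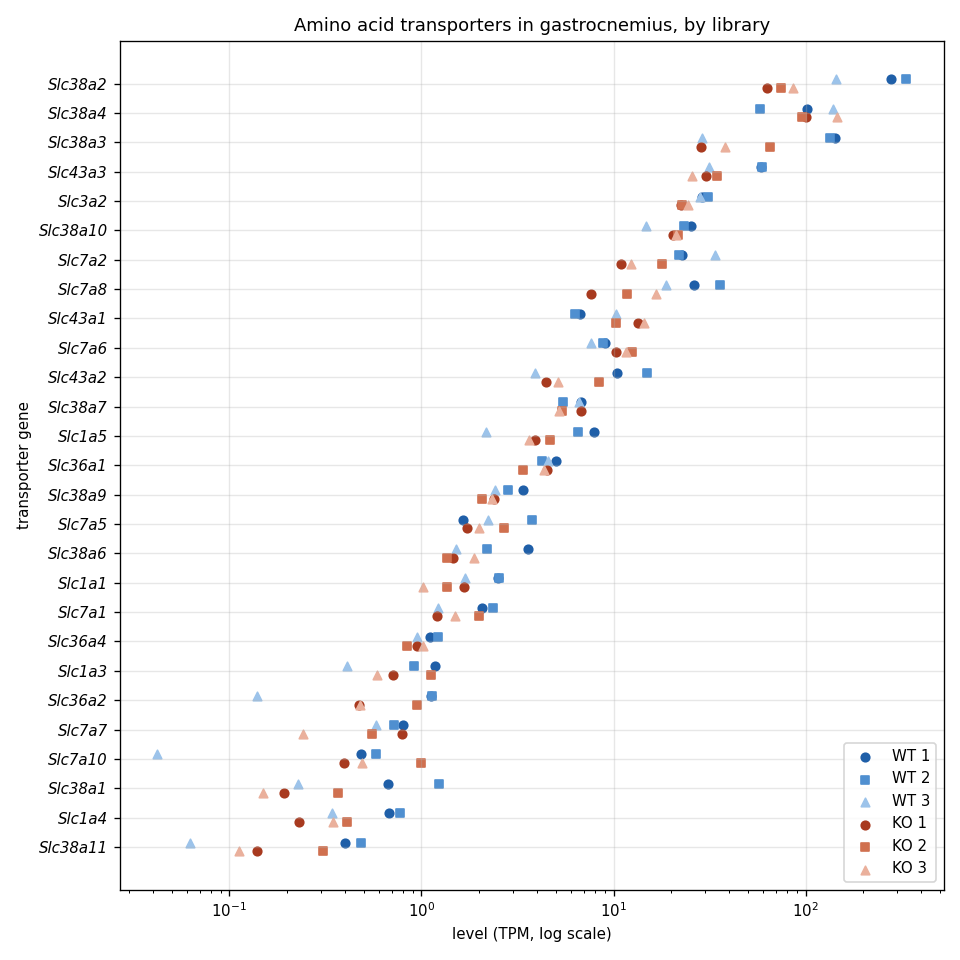
Level of each of the 27 transporters in each of the 6 libraries (TPM, log scale), ordered by mean level, with WT libraries in blue and libraries labelled *Sirt6* KO in red. *Slc38a2* is at the top with all 3 WT libraries to the right of all 3 KO libraries, while the lowest gene, *Slc38a11*, stays under 1 TPM in every library.

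Of these genes, 2 passed the test (edgeR, adjusted p under 0.05 over all genes tested). *Slc38a2* fell 3.05-fold and *Slc7a6* rose 1.46-fold. In total 1 of 27 was lower, against 8.39% of all 13801 genes tested, and 1 of 27 was higher, against 7.85%. The share called in either direction was 7.41% of the transporters and 16.2% of all genes tested, so the share of calls among the transporters was not above this background. The median log2 fold change of the 27 was -0.22, against -0.02 over all genes tested, with 21 negative and 6 positive values. At an unadjusted p under 0.05, 8 of the 27 were counted (29.6%, against 35.3% of all genes tested). These counts depended on the libraries. Without WT 3, 6 transporters were lower (15.7% of all genes tested) and 2 were higher (16.7%), without *Sirt6* KO 2 the 1 call was *Slc38a2*, and without WT 1, WT 2, *Sirt6* KO 1 or *Sirt6* KO 3 edgeR called 0 of 27, with 3 to 4 at an unadjusted p under 0.05 (11.1% to 14.8%, against 24.3% to 27.1% of all genes tested).

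At a change of over 2-fold with an unadjusted p under 0.05, *Slc38a2*, *Slc7a8* and *Slc38a1* were counted as lower (3 of 27, against 4.69% of all genes tested), and by this measure no transporter was higher (3.14% of all genes tested). The groups did not overlap in normalized CPM for 6 of the 27 transporters (22.2%, against 40% of all genes tested). *Slc38a2*, *Slc7a2*, *Slc7a8*, *Slc38a9* and *Slc1a1* were lower in every KO library than in every WT library (5 of 27, against 19.6% of all genes tested), and *Slc7a6* was higher (1 of 27, against 20.3%). With 3 libraries against 3, the exact two-sided permutation test allows no p below 0.1. Each of these 6 genes reached that value, as any gene without overlap must, so this adds nothing to the separation itself. The plot of differences by family sets the 2 called genes beside the other 25.

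**Figure D2:**
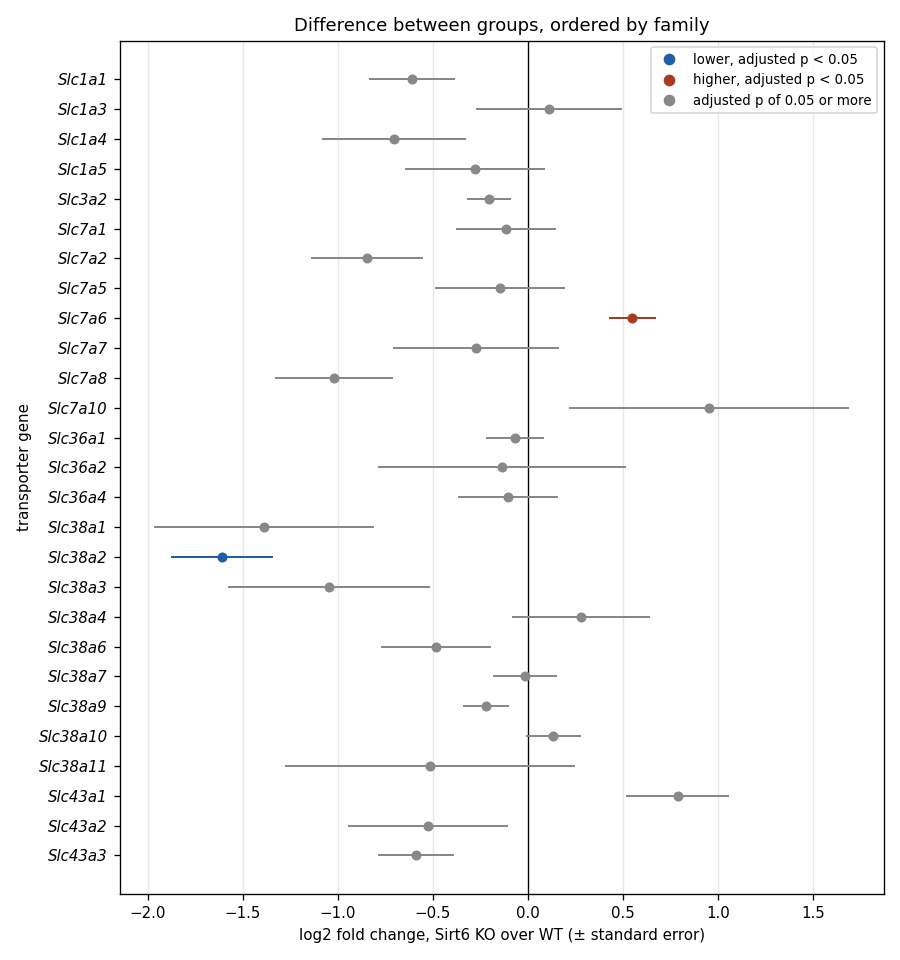
Log2 fold change of each transporter, *Sirt6* KO over WT, with its standard error, grouped by family. *Slc38a2* (-1.61) is the one called lower and *Slc7a6* (0.55) the one called higher, and the bars of many genes with few counts, such as *Slc7a10* and *Slc38a11*, are several times as wide as that of *Slc7a6*.

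*Slc38a2* encodes SNAT2, a sodium-coupled carrier of system A that is well known for being induced when cells lack amino acids. The gene (NCBI gene 67760) lies on chromosome 15 from 96687392 to 96699728 on the minus strand of GRCm38. The study centres on CREB, a factor that binds the cAMP response element (CRE), so promoter windows were searched for the full CRE TGACGTCA and for its core TGACG, on both strands, in the 300 bases from 250 before to 50 after each transcription start of RefSeq on GRCm38.p6. Of the 27 transporters, 20 had at least 1 window, 29 windows in all. The core was found in 10 of the 29 windows, against 20.8% of all 32851 windows. Per gene, 9 of the 20 held it in at least 1 window, *Slc38a2* and *Slc7a6* among them, against 23% of all 27025 genes with a window. The transporters had been kept for their counts and the 27025 genes had not, so these shares are not like for like. Whether they differ was not tested. The full element was found in 1 of the 29 windows, that of *Slc38a6*, against 1.79% of all windows. Every full element holds 2 overlapping cores, 1 on each strand. The windows of the 2 called genes and of *Slc38a6* are shown so that the called genes can be compared with the one that carries the full element, with matches in capitals. A match is a run of letters and was not tested as a binding site. The *Slc38a2* window is chr15:96699679-96699978 (minus strand), with its match starting 27 bases before the start. The *Slc7a6* window, the first of 2, is chr8:106168604-106168903 (plus strand), with the match beginning 1 base before the start. The *Slc38a6* window is chr12:73286598-73286897 (plus strand), with matches between 201 and 118 bases before the start.
Slc38a2: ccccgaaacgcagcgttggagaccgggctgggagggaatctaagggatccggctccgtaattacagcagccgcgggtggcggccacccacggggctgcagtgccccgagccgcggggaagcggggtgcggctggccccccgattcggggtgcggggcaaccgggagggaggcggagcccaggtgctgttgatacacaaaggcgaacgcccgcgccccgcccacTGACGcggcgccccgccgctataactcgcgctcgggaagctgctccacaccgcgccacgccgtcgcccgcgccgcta
Slc7a6: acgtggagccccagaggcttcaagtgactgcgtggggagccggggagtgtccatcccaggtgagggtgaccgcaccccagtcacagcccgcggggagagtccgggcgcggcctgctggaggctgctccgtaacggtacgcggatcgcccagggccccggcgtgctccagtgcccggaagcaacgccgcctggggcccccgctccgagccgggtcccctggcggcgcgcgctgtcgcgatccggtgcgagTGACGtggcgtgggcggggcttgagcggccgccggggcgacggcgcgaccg
Slc38a6: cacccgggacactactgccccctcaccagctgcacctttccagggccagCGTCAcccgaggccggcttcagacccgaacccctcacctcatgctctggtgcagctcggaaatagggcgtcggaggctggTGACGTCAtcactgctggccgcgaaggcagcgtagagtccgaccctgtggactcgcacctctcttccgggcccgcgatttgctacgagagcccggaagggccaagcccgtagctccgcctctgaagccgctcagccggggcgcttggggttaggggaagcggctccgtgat

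*Slc38a6*, the gene with the full element, is a little-studied member of its family, and its levels overlapped between the groups (log2 fold change -0.48, SE 0.29, edgeR adjusted p = 0.271). The C/EBP-ATF element TGATGNAA, the kind of site that ATF4 uses, was found in 3 of the 29 windows, those of *Slc1a4* and *Slc7a7*, against 3.97% of all windows. The E-box CACGTG, bound by the TFEB group of lysosomal regulators among others, was found in 3 of the 29, those of *Slc36a1*, *Slc38a7* and *Slc43a1*, against 7.15%. None of these last 5 genes passed the test. Sites outside the windows, such as those in introns, were not searched, so a gene without a match may still hold one elsewhere.

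*Slc38a2* was the most abundant transporter in every WT library. Its level was 537, 686 and 344 CPM in WT 1, 2 and 3, and 139, 173 and 201 CPM in *Sirt6* KO 1, 2 and 3. All 3 KO libraries lay well below the lowest WT library, and WT 3, the library poor in slow-fiber genes, was the lowest of its group. The log2 fold change was -1.61 (SE 0.27, edgeR adjusted p = 0.0157). Per length, the mean fell from 252 ± 98.2 TPM to 74.6 ± 11.5 TPM (SD, n = 3 each). The fold change stayed between -1.83 and -1.36 whichever library was left out, but the call depended on which library was left out. The adjusted p was 0.0549 without WT 1, 0.0507 without WT 2, 0.0681 without *Sirt6* KO 1 and 0.0723 without *Sirt6* KO 3, and it was 0.0047 without WT 3 and 0.0455 without *Sirt6* KO 2. With the slow-fiber level as a covariate, the fold change was -1.33 (adjusted p = 0.00747).

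*Slc38a4* encodes SNAT4, a further system A carrier, and in the KO libraries it took the first place. It stood at 101, 58.2 and 139.5 TPM in WT and at 101, 96.3 and 146 TPM in KO, so the groups overlapped (log2 fold change 0.28, SE 0.36, edgeR adjusted p = 0.617). In WT 1 and WT 2, *Slc38a2* was well above *Slc38a4*, and in WT 3 the 2 genes were level at 143 and 139.5 TPM. In each KO library *Slc38a4* was above *Slc38a2*. This change of order was not tested as such.

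*Slc38a3* encodes SNAT3, a system N carrier that moves glutamine, histidine and asparagine. Its level was 142, 134.5 and 28.9 TPM in WT and 28.4, 65.4 and 38.1 TPM in KO. WT 3 sat among the KO libraries, and the order over the 6 libraries resembled that of the slow-fiber genes. The log2 fold change of -1.05 (SE 0.53, edgeR adjusted p = 0.201) shrank to -0.27 (SE 0.10) with the slow-fiber level as a covariate. The plot of single genes beside the slow-fiber genes shows that *Slc38a2* separates the groups and *Slc38a3* does not.

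**Figure D3:**
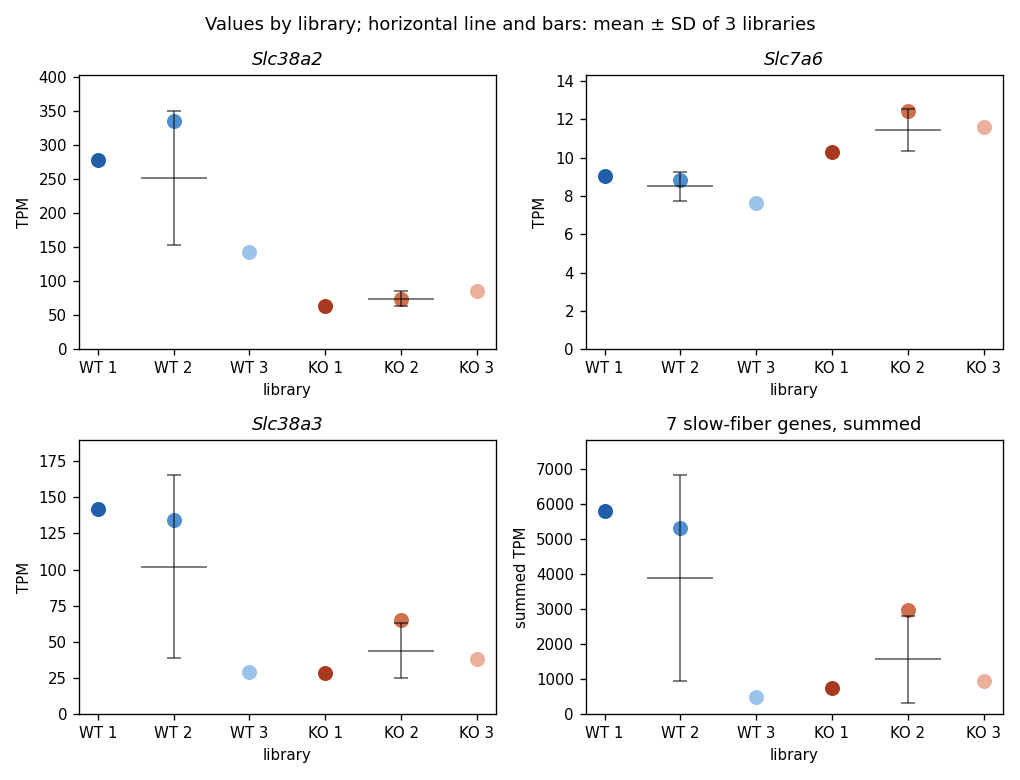
Level of *Slc38a2*, *Slc7a6* and *Slc38a3* (TPM) and the summed TPM of 7 slow-fiber genes in each library, with the mean and SD of 3 libraries per group, all axes starting at 0. *Slc38a2* and *Slc7a6* show no overlap between WT and *Sirt6* KO, whereas *Slc38a3* and the slow-fiber genes are high in WT 1 and WT 2 and low in WT 3.

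The remaining *Slc38* genes gave no call. *Slc38a1*, which encodes SNAT1, the system A carrier best known from neurons, was low at 0.670, 1.23 and 0.227 TPM in WT and 0.192, 0.366 and 0.1504 TPM in KO. It lay 2.62-fold lower on average with WT 3 inside the KO range (log2 fold change -1.39, SE 0.58, edgeR adjusted p = 0.134). *Slc38a1*, *Slc38a2* and *Slc38a4* are neighbours on the same strand of chromosome 15, with 43953 bases between the first 2 and 295087 between the last 2, and only the middle gene passed the test. *Slc38a10*, a carrier of glutamine, glutamate and aspartate, was nearly level at 21.1 ± 5.66 TPM in WT and 21 ± 0.675 TPM in KO (SD, n = 3 each). *Slc38a11*, an uncharacterized relative, stayed under 0.5 TPM in every library.

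The fall of *Slc38a2* made up most of the difference in the summed transporter level. The 27 genes summed to 749, 766 and 486 TPM in WT and to 339, 404 and 427 TPM in KO, without overlap. *Slc38a2* alone made up 37.2%, 43.7% and 29.5% of this sum in WT, and 18.6%, 18.4% and 20.2% in KO. Without it, the sums were 471, 431 and 342 TPM against 276, 330 and 341 TPM, and WT 3 and *Sirt6* KO 3 were then nearly level. In normalized CPM, the sums without *Slc38a2* were 695, 677 and 711 in WT and 492, 613 and 648 in KO, still without overlap, so the separation of the rest was narrow on either scale. The stacked plot shows the parts.

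**Figure D4:**
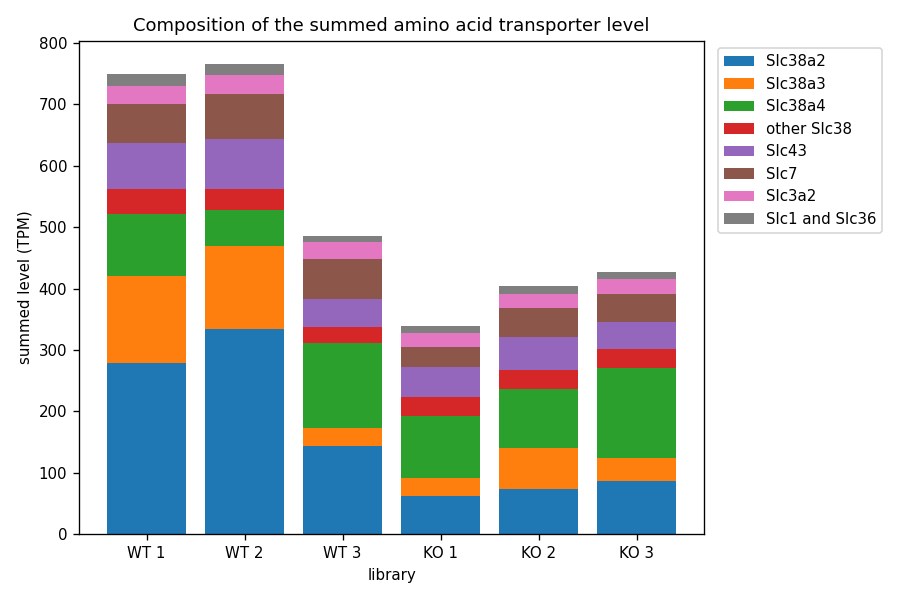
Summed level of the 27 transporters in each library (TPM, bars from 0), divided by gene or family. The *Slc38a2* segment is the largest in each WT bar and is smaller than the *Slc38a4* segment in each *Sirt6* KO bar, and the summed height is between 486 and 766 in WT and between 339 and 427 in KO.

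*Slc7a6* was the transporter that rose. It encodes y+LAT2, which pairs with the CD98 heavy chain and exports cationic amino acids such as arginine in exchange for neutral ones and sodium. The gene (NCBI gene 330836) lies on chromosome 8 from 106168219 to 106198714 on the plus strand. In CPM the WT libraries were tightly grouped at 14.1, 14.6 and 14.7 (SD 0.349), and the KO libraries were wider apart at 18.3, 23.3 and 21.8 (SD 2.59). In TPM the WT values were less tight, at 9.05, 8.84 and 7.62 (SD 0.771), against 10.3, 12.5 and 11.6 (SD 1.1) in KO. The log2 fold change was 0.55 (SE 0.12, edgeR adjusted p = 0.0285), a small difference beside a WT spread that was smaller still. It stayed between 0.48 and 0.65 whichever library was left out. The call held without WT 3 (adjusted p = 0.0215) and was lost without WT 1 (0.0877), WT 2 (0.0876), *Sirt6* KO 1 (0.0608), *Sirt6* KO 2 (0.0756) or *Sirt6* KO 3 (0.112).

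Its partner *Slc3a2* did not rise with it. *Slc3a2* stood at 31.8, 35.9 and 38.7 CPM in WT and at 28.3, 30.6 and 33.3 CPM in KO (log2 fold change -0.21, SE 0.12, edgeR adjusted p = 0.246). In CPM the groups overlapped, and in TPM they did not, at 29.0, 30.9 and 28.0 TPM in WT against 22.4, 22.8 and 24.6 TPM in KO. Of the other light chains, *Slc7a5* (LAT1, the main importer of leucine in growing cells) was low, at between 1.65 and 3.77 TPM in WT and between 1.73 and 2.68 TPM in KO. *Slc7a7* (y+LAT1) was under 1 TPM in every library.

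*Slc7a8* encodes LAT2, an exchanger of neutral amino acids that also works with the CD98 heavy chain. It stood at 26.1, 35.7 and 18.8 TPM in WT and at 7.67, 11.8 and 16.7 TPM in KO. The groups did not overlap, the gap between WT 3 and *Sirt6* KO 3 being the narrowest part, and the difference of -1.02 on the log2 scale (SE 0.31) had an edgeR adjusted p of 0.0639. DESeq2 called it (adjusted p = 0.00798). *Slc7a8* and *Slc7a6* thus lay on opposite sides of 0 although they share a heavy chain.

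The cationic carriers *Slc7a1* (CAT1) and *Slc7a2* (CAT2) import arginine, lysine and ornithine without a heavy chain. *Slc7a2*, the more abundant of the pair in muscle, stood at 22.8, 21.8 and 33.8 TPM in WT and at 10.96, 17.9 and 12.3 TPM in KO. The groups did not overlap, and unlike most of the genes it was highest in WT 3. Its log2 fold change was -0.85 (SE 0.29, edgeR adjusted p = 0.0883), and DESeq2 called it (adjusted p = 0.0199). *Slc7a1* averaged 1.88 ± 0.591 TPM in WT and 1.57 ± 0.397 TPM in KO (SD, n = 3 each), a difference smaller than its spread.

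*Slc7a10* encodes Asc-1, a carrier of small neutral amino acids that is known as a surface marker of white adipocytes. It stood at 0.485, 0.577 and 0.0420 TPM in WT and at 0.396, 0.992 and 0.491 TPM in KO, and its WT 3 value rests on 3 counts. The 5 adipocyte markers, *Adipoq* and *Plin1* among them, summed to 34.8, 37.7 and 2.69 TPM in WT and to 14.7, 66.1 and 27.2 TPM in KO. Both were highest in *Sirt6* KO 2 and lowest in WT 3, and the part of fat in the *Slc7a10* values was not tested. *Slc36a2*, a proton-coupled carrier known from brown adipocytes, was also lowest in WT 3, at 0.140 TPM, against 1.12 and 1.14 TPM in the other WT libraries and 0.473, 0.943 and 0.481 TPM in KO.

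The *Slc43* family holds uniporters that let branched-chain and other large neutral amino acids leave the cell. *Slc43a1* (LAT3) stood at 6.67, 6.34 and 10.3 TPM in WT and at 13.4, 10.3 and 14.4 TPM in KO. WT 3 and *Sirt6* KO 2 met in the middle, and the log2 fold change of 0.79 (SE 0.27) had an edgeR adjusted p of 0.0881. *Slc43a2* (LAT4) leaned the other way, from 9.78 ± 5.57 TPM to 5.99 ± 2.08 TPM (SD, n = 3 each), a difference inside its spread. *Slc43a3*, which despite its family carries purine bases rather than amino acids, stood at 58.7, 59.4 and 31.5 TPM in WT and at 30.1, 34.5 and 25.5 TPM in KO (log2 fold change -0.59, SE 0.20, edgeR adjusted p = 0.0829). *Slc43a1* and *Slc43a3* are neighbours, 72958 bases apart on chromosome 2, and had opposite signs. With the slow-fiber level as a covariate both passed the test, *Slc43a1* at 0.58 (adjusted p = 0.0203) and *Slc43a3* at -0.37 (adjusted p = 0.0347).

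The *Slc1* family, high-affinity carriers of glutamate, aspartate and small neutral amino acids, was sparse in muscle. Its 4 kept members summed to between 4.62 and 12.3 TPM in WT and between 5.60 and 7.55 TPM in KO. *Slc1a1* (EAAT3, a glutamate importer) was the member whose groups did not overlap, at 2.49, 2.55 and 1.69 TPM in WT and 1.67, 1.36 and 1.02 TPM in KO. WT 3 and *Sirt6* KO 1 nearly touched, and the log2 fold change was -0.61 (SE 0.23, edgeR adjusted p = 0.103). *Slc1a5* (ASCT2, a glutamine exchanger) stood at 7.92, 6.56 and 2.18 TPM in WT, a wider range than the 3.65 to 4.67 TPM of the KO libraries that lay within it. *Slc1a4* (ASCT1, a serine and alanine exchanger) stood at 0.677, 0.778 and 0.341 TPM in WT and 0.231, 0.408 and 0.346 TPM in KO, with a log2 fold change of -0.70 (SE 0.38). *Slc1a3* (EAAT1), the glutamate carrier of glia, averaged 0.833 ± 0.388 TPM in WT and 0.804 ± 0.277 TPM in KO (SD, n = 3 each).

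Within the *Slc36* and *Slc38* families, the lysosomal carriers stood at nearly the same level in both groups. Outside the 6 families, *Ctns*, *Pqlc2* and *Mfsd12*, which also serve the lysosome, were called, as given further below. *Slc38a9*, the arginine-sensing carrier that binds the Rag GTPases, stood at 12.5, 11.2 and 11.2 CPM in WT and at 10.1, 9.29 and 10.5 CPM in KO. The groups did not overlap, but the log2 fold change was -0.22 (SE 0.12, edgeR adjusted p = 0.23). *Slc38a7*, which lets glutamine and asparagine out of the lysosome, had a log2 fold change of -0.02 (SE 0.17). *Slc36a1*, a proton-coupled exporter of small amino acids, had one of -0.07 (SE 0.15), and *Slc36a4* had one of -0.11 (SE 0.26). For *Slc38a7* and *Slc36a1*, the means of 6.29 and 4.61 TPM in WT differed from the 5.80 and 4.08 TPM in KO by less than the larger SD of each pair.

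Several of the 27 genes shared their highest libraries with the slow-fiber genes. For 10 of them (*Slc38a3*, *Slc43a3*, *Slc43a2*, *Slc1a5*, *Slc7a1*, *Slc1a3*, *Slc36a2*, *Slc38a1*, *Slc1a4* and *Slc38a11*) the 3 highest libraries in CPM were WT 1, WT 2 and *Sirt6* KO 2, the same 3 that led the slow-fiber genes, which held for 10.4% of all genes tested. In 3 of the 10, *Slc43a3*, *Slc38a1* and *Slc1a4*, WT 3 lay above *Sirt6* KO 1 and 3, whereas it was the lowest library for the slow-fiber genes. For *Slc43a1* and *Slc36a1*, WT 1, WT 2 and *Sirt6* KO 2 were the 3 lowest (8.17% of all genes tested). Other cell types varied between the same libraries. The 7 endothelial markers summed to 183, 185 and 87.0 TPM in WT and 120, 110 and 116 TPM in KO, the 7 Schwann cell markers to between 24.7 and 79.7 TPM in WT and between 25.95 and 36.02 TPM in KO, the 5 fibroblast markers to between 368 and 845 TPM and between 372 and 421 TPM, and the 8 macrophage markers to between 41.2 and 95.5 TPM and between 45.2 and 52.2 TPM. No defining marker was at 0 in all libraries. Of the 3 satellite cell markers, *Pax7* (log2 fold change 1.28, edgeR adjusted p = 0.0299) and *Myf5* (1.33, adjusted p = 0.0225) were higher, while *Calcr* had a log2 fold change of -0.63 with overlapping groups (adjusted p = 0.256). The part of these cell types in the transporter values was not tested, apart from the slow-fiber covariate.

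Amino acid supply is read by a chain of complexes on the lysosome. Ragulator anchors the Rag GTPases, GATOR1 and GATOR2 switch them, KICSTOR holds GATOR1 in place, the folliculin complex FLCN-FNIP acts on RagC and RagD, and Rheb switches mTORC1 on. Of the 34 sensing genes tested, 5 were lower and 7 were higher, and the share called, 35.3%, compares with 16.2% over all genes tested. Their median log2 fold change was 0.16. All 3 FLCN-FNIP genes were called lower and 3 of 5 GATOR2 genes were called higher, as the plot of sensing genes shows. The 5 GATOR2 log2 fold changes ran from -0.26 to 0.81.

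*Flcn* fell from 254 ± 41.6 CPM to 96.7 ± 18.1 CPM (SD, n = 3 each), with a log2 fold change of -1.39 (SE 0.19, edgeR adjusted p = 0.0131). Its partner *Fnip1* fell by 0.94 on the log2 scale (adjusted p = 0.0171), and *Fnip2*, named after its values were seen, fell by 1.34 (adjusted p = 0.0429), so all 3 members of the complex were called. *Rheb* fell from 91.7 ± 9.61 CPM to 50.7 ± 3.21 CPM, by 0.85 on the log2 scale (SE 0.12, adjusted p = 0.0131). In GATOR2, 3 of 5 genes rose, *Wdr24* by 0.81 (adjusted p = 0.0181), *Wdr59* by 0.81 (adjusted p = 0.0144) and *Sec13*, which also serves the COPII coat and the nuclear pore, by 0.70 (adjusted p = 0.0189). *Lamtor4* of Ragulator rose by 0.64 (adjusted p = 0.0148) and *Itfg2* of KICSTOR by 0.86 (adjusted p = 0.0234). The remaining calls, also named after their values were seen, were *Mlst8* of mTORC1 (0.63, adjusted p = 0.0243), *Rraga*, which encodes RagA (0.41, adjusted p = 0.0488), and *Bmt2*, which encodes the S-adenosylmethionine sensor (-0.64, adjusted p = 0.0349). Genes rich in G and C tended to be higher (Spearman's rho of log2 fold change with GC content 0.332 across 13417 genes, which are not independent). With that trend removed, a setting chosen after seeing the data, *Flcn*, *Rheb*, *Sec13* and *Wdr59* still passed and the other 8 did not. Among those 8, *Fnip2* (-1.35, adjusted p = 0.0585) and *Rraga* (0.42, adjusted p = 0.0665) kept their fold change, *Wdr24* (0.60), *Itfg2* (0.70), *Mlst8* (0.46) and *Lamtor4* (0.42) had smaller ones, and *Fnip1* (-0.59) and *Bmt2* (-0.27) shrank the most among the lower genes. The 12 calls became 6 lower and 10 higher without WT 3 (15.7% and 16.7% of all genes tested). They became 3 lower without WT 1 (1.85%), 2 lower without WT 2 (1.09%), and 3 lower and 3 higher without *Sirt6* KO 2 (3.14% and 3.06%). They became 0 without *Sirt6* KO 1 or *Sirt6* KO 3, where edgeR called 8 and 13 genes in the whole table, against 3619 and 3423 at an unadjusted p under 0.05.

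**Figure D5:**
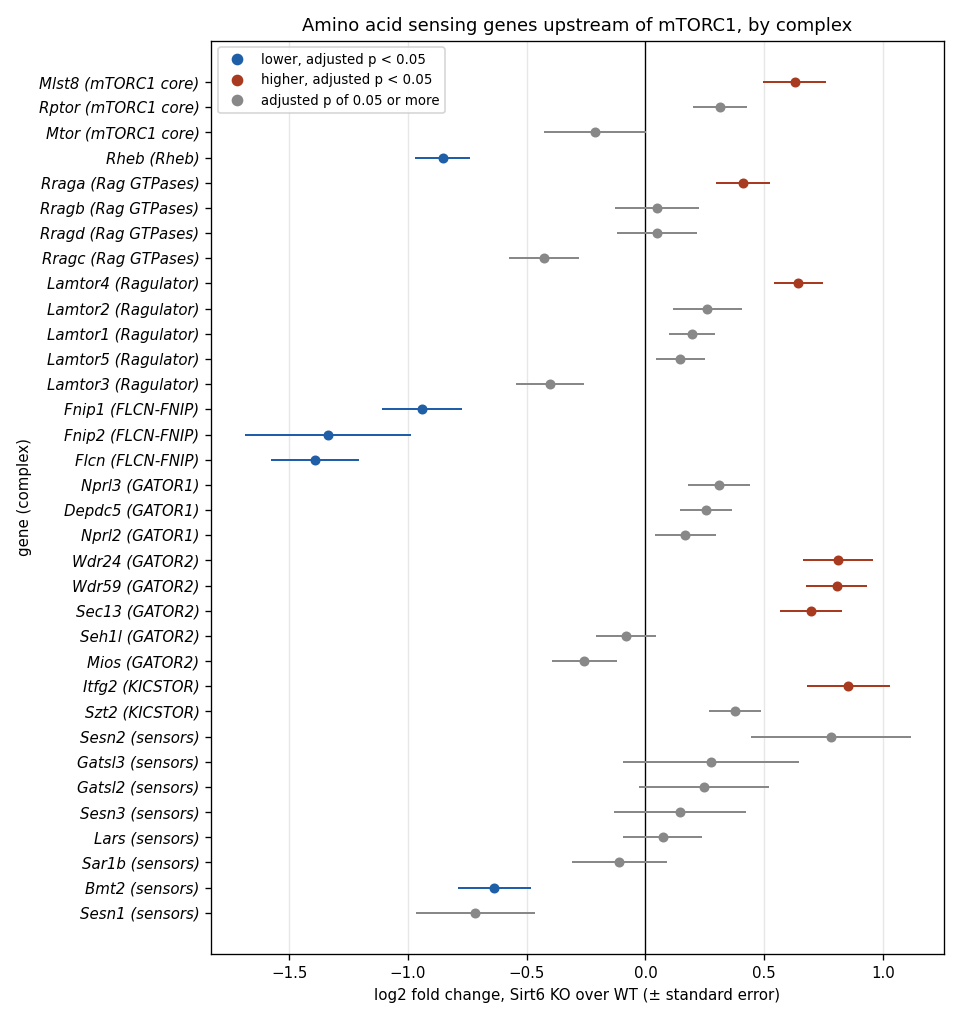
Log2 fold change of the 34 tested genes that carry the amino acid signal to mTORC1, *Sirt6* KO over WT, with its standard error and the complex of each gene. *Flcn* (-1.39), *Fnip2* (-1.34), *Fnip1* (-0.94) and *Rheb* (-0.85) are called lower, and *Wdr24* (0.81), *Wdr59* (0.81) and *Sec13* (0.70) of GATOR2 are called higher.

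Amino acid carriers outside the 6 families were considered next. Among the 24 listed, 12 could be tested, with 2 lower and 2 higher, a share called of 33.3% against 16.2% over all genes tested. *Ctns*, the lysosomal cystine exporter, stood at 13.3, 15.4 and 10.4 CPM in WT and at 7.20, 6.85 and 8.28 CPM in KO (log2 fold change -0.81, edgeR adjusted p = 0.0265). *Pqlc2*, the lysosomal exporter of cationic amino acids, stood at 1.91, 3.06 and 3.82 CPM in WT and at 7.45, 5.94 and 7.32 CPM in KO (1.24, adjusted p = 0.0261). The groups did not overlap for either gene. *Slc6a17*, a vesicular carrier of neutral amino acids, was lower (-1.39, adjusted p = 0.0402), and *Mfsd12*, needed for cysteine import into lysosomes, was higher (1.25, adjusted p = 0.04). With the GC trend removed, *Ctns* and *Slc6a17* still passed and *Pqlc2* (1.04, adjusted p = 0.0582) and *Mfsd12* (0.98, adjusted p = 0.0955) did not, at somewhat smaller fold changes. All 4 calls were lost without WT 1, WT 2 or any of the KO libraries. In those fits 0.0142% to 3.14% of all genes tested were lower and 0.0426% to 3.06% higher.

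ATF4 is the transcription factor that raises amino acid transporters and synthesis genes when amino acids run short, and *Slc38a2* is among its known targets. Of 29 such genes tested outside the transporters, 6 were lower, and every call in this list was in that direction, although with the slow-fiber covariate 6 were lower and 1 was higher. *Atf4* itself stood at 251.3, 276 and 273.5 CPM in WT and at 141, 176 and 198 CPM in KO (log2 fold change -0.64, SE 0.15, edgeR adjusted p = 0.0316). *Asns*, which makes asparagine and is the textbook target, stood at 2.01, 2.59 and 1.57 CPM in WT and at 0.649, 0.874 and 0.962 CPM in KO (-1.31, adjusted p = 0.0293). Both separated the groups. *Cebpg*, an ATF4 partner, fell by 0.73 on the log2 scale (adjusted p = 0.0132) and *Ppp1r15a*, which restores translation after stress, fell by 1.38 (adjusted p = 0.0132). *Atf3*, a stress factor, fell by 3.12 (adjusted p = 0.0163) and *Ddit4*, an mTORC1 inhibitor, fell by 2.27 (adjusted p = 0.042). The list's median log2 fold change was -0.42, against -0.02 over all genes, and 20.7% of it was called, against 16.2%. Of the 29, 18 had a negative and 11 a positive log2 fold change. The groups did not overlap for 8 lower and 2 higher genes (34.5%, against 40% of all genes tested). Synthesis genes other than *Asns* lay on both sides of 0 and none was called, so the list did not fall as a whole. *Atf4* kept its call without WT 3 (adjusted p = 0.0272) and lost it without any other single library (0.0776 to 0.0987). The list's 6 calls became 9 lower and 3 higher without WT 3, where 15.7% of all genes tested were lower and 16.7% higher. The calls then ran in both directions, as they did over all genes. They became 2 lower without WT 1 (1.85% of all genes tested), 1 lower without WT 2 (1.09%) and 4 lower without *Sirt6* KO 2 (3.14%). Without *Sirt6* KO 1 or *Sirt6* KO 3 they became 0, where 0.0142% and 0.0354% of all genes tested were lower.

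The other 15 genes of these families were near or at the limit of detection and were not kept. *Slc7a11*, the cystine importer xCT, had 16, 21 and 4 counts in WT and 0, 0 and 5 counts in KO. *Slc3a1*, the heavy chain of the kidney cystine carrier, had 11, 8 and 5 counts in WT and 0 in each KO library. Both patterns rest on a handful of reads, and 0 counts in a library allow up to 3 counts. *Slc7a3*, *Slc7a4*, *Slc1a2*, *Slc1a7* and *Slc7a13* had between 2 and 27 counts over the 6 libraries, and *Slc1a6*, *Slc7a9*, *Slc7a12*, *Slc7a14*, *Slc7a15*, *Slc36a3*, *Slc38a5* and *Slc38a8* had none.

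Some of the values carry a limit of assignment. The strand used in counting is not stated, and *Slc7a5*, *Slc7a7*, *Slc7a10* and *Slc1a1* overlap a protein-coding gene on the opposite strand, so their counts are uncertain to that extent. In the annotation used, neither *Slc38a2* nor *Slc7a6* overlaps a further gene.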

How the data were processed

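GAS muscle RNA of 6 mice was analysed, 3 labelled WT and 3 labelled *Sirt6* KO, 1 library each. Library numbers here are the replicate numbers of the sample titles, and they mostly differ from the numbers in the submitters' descriptions of the samples. Per the submitters' processing notes, reads were aligned with HISAT2 2.1.0 and Bowtie2 2.3.4.1 and quantified with StringTie 2.1.3b on mm10. The reporting summary names STAR, the labels name a stranded TruSeq kit and the methods an unstranded one, and the strand of counting is not given in the sources used here. The authors deposited whole-number counts per gene without normalization, FPKM values and TPM values in 1 table.

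Counts were tested in R 4.3.3 with edgeR 4.0.16 (filterByExpr, 13801 genes kept, TMM, quasi-likelihood test, group as the one factor) with Benjamini-Hochberg adjustment over all genes tested at 0.05. CPM values are TMM-normalized, TPM values are those deposited, and fold changes with their standard errors are from edgeR. SDs are over 3 libraries. Library totals were 44845763 to 63016899 counts. A library with 0 counts of a gene allows up to 3, which covers counting error only. The TMM factors were 0.909 to 1.11, and the common dispersion gave a coefficient of variation of 24.1% between animals. On simulated data, in which 200 genes had a log2 change of 2, edgeR recovered 89.5% with 5.29% false calls (13607 genes).

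Alternatives were DESeq2 1.42.0, its size factors, 3 filters on low counts, limma 3.58.1 after quantile normalization of log2 FPKM, with a pseudocount of 1 or 0.1, for genes with FPKM above 1 in at least 1 library, the replicate number as a block, the slow-fiber level as a covariate and each library left out. Removal of a lowess trend over GC content (GENCODE M21, known for 97.2% of genes tested) was chosen after seeing the data. The member genes, the lists and the tests were chosen with earlier results of these data known, so they are not independent evidence. Every transporter could be named, and of each further list the called genes with the 8 smallest p. Promoter windows are from RefSeq, GRCm38.p6. A test result for 1 marker gene is left out here.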

Additional observations from a re-analysis of the deposited data

How the results depend on the processing

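*Slc38a2* was lower in all 16 alternatives (log2 fold change -1.83 to -1.33) and called in 12, and *Slc7a6* was higher in all 16 (0.43 to 0.65) and called in 11. The 1 lower and 1 higher transporter became 4 and 2 with DESeq2 (12.9% and 12.4% of all genes with an adjusted p). They became 2 and 2 with the replicate block (7.38% and 6.55%), and 2 and 3 with the slow-fiber covariate (11.5% and 10.6%). With 1 library left out, they ranged from 0 to 6 lower (0.0142% to 15.7% of all genes) and 0 to 2 higher (0.0426% to 16.7%). In those fits edgeR counted 3 to 13 of the 27 at an unadjusted p under 0.05, against 24.3% to 45.4% of all genes. The most calls came without WT 3 (over all genes 2219 lower and 2363 higher), and the fewest came without *Sirt6* KO 1 (2 and 6) or *Sirt6* KO 3 (5 and 8). Over all genes DESeq2 called 1746 lower and 1674 higher, and with the GC trend removed edgeR called 465 and 451. Leaving out 1 library moved the calls among the sensing genes from 12 to between 0 and 16, among the other carriers from 4 to between 0 and 4, and among the ATF4-responsive genes from 6 to between 0 and 12 (9 lower and 3 higher without WT 3). Removal of the GC trend left 4 sensing genes and 2 other carriers, and limma on log2(FPKM + 1) and the replicate block each left 2 other carriers. These fits use fewer libraries or another spread, and the cause of the other moves was not tested.

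Same-numbered libraries did not deviate together in every pair (correlations of -0.106, 0.26 and 0.161 for numbers 1, 2 and 3), so the numbers were not taken to pair the animals. With the replicate block, *Slc38a2* was at -1.57 (adjusted p = 0.0315), *Slc7a6* at 0.54 (adjusted p = 0.04), *Slc43a1* and *Slc43a3* were called as well, and *Slc36a2* changed sign to 0.078.

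Signs changed for 13 transporters, of which *Slc1a5* was called in 1 alternative, without WT 3, and the others in none. With 1 library left out the log2 fold change spanned 0 for *Slc1a3* (-0.20 to 0.37), *Slc1a5* (-0.62 to 0.0055), *Slc36a1* (-0.15 to 0.0515), *Slc36a2* (-0.61 to 0.22), *Slc38a10* (-0.0022 to 0.23), *Slc38a4* (-0.014 to 0.74), *Slc38a7* (-0.13 to 0.13), *Slc7a1* (-0.33 to 0.0654), *Slc7a5* (-0.41 to 0.20) and *Slc7a7* (-0.63 to 0.0574). With the slow-fiber covariate the sign changed for *Slc1a5* (0.24), *Slc36a2* (0.89), *Slc38a11* (0.47), *Slc43a2* (0.0233) and *Slc7a1* (0.11), and *Slc7a10* was called at 2.12 (adjusted p = 0.0182). It also changed for *Slc36a4* (0.10) and *Slc38a10* (-0.10) with the GC trend removed, for *Slc38a7* with limma (0.0015 and 0.0045 at pseudocounts of 1 and 0.1), and for *Slc7a5* with limma at 0.1 (0.0326). The power to call small changes, or changes in transporters with few counts, was not simulated.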
